A study of Mus musculus with 2 samples.

Results

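The regions described here are the 511 peaks of RNA recovered with BUD31 that lie on mouse chromosomes 2, 15 and 17, out of 16331 peaks in the whole deposited list. The members were chosen by chromosome from the same peak list, because earlier results showed few peaks there and a high share of them in exons and untranslated regions (UTRs). These 2 properties are therefore given as descriptions of the members and not as findings. The list came from an RNA immunoprecipitation (RIP-seq) experiment, in which an antibody pulls a protein down with its RNA and the RNA is sequenced. The groups were 1 anti-BUD31 library and 1 input library made from 10% of total RNA, both from testicular germ cells of C57BL/6J mice at postnatal day 14, freed from the tissue by a 2-step enzyme treatment. No treatment or mutant allele was named for either group. There was 1 library per group, so no value below has a replicate check, and intervals cover counting error over peaks or genes only. Neighbouring peaks of a gene share their transcript and their library and are not independent.

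BUD31 is a subunit of the spliceosome, the complex of small nuclear RNAs and proteins that removes introns from precursor RNA. SR proteins, rich in arginine and serine, mostly promote the use of nearby exons, and many heterogeneous nuclear ribonucleoproteins (hnRNPs) repress them. In the testis, germ cells pass from mitosis through meiosis to spermatid differentiation with extensive alternative splicing, and at postnatal day 14 many of them are in meiotic prophase.

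Sequences were available around transcript starts and for mature miRNAs. Of 5409 transcript starts listed by RefSeq (GRCm38.p6) on the 3 chromosomes, 8 lay inside a peak. The 4 below are shown because they place a peak over the first transcribed bases of Tcp11, of an alternative first exon of Stx16, of Gnas, and of 1700001L05Rik, the gene of the widest peak. The 15 bases before each start are in lower case and the first 15 transcribed bases are in capitals.
Tcp11, chr17:28080570-28080599, minus strand: agcgggcgggccggcAGAGAAGGAAGTGAG
Stx16, chr2:174077036-174077065, plus strand: gggggtcacaaagggGGAGACAATGGCCAC
Gnas, chr2:174284305-174284334, plus strand: gccccatctctcctcAGTCTCCTCTATCCT
1700001L05Rik, chr15:83367283-83367312, minus strand: cttacttccacgcgcTGTGAGCGCGCGCCC
The Tcp11 peak was annotated as 5′ UTR, the Stx16 and 1700001L05Rik peaks as intron. The peak over the Gnas start was assigned to Nespas, an antisense transcript of the same imprinted locus. The peak list gives no strand, so reads of Gnas and of Nespas there cannot be told apart.

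Mir298 is a member named by 4 intergenic peaks, and its mature products are shown because none of those peaks covers them. The seed, bases 2 to 8, is in capitals.
mmu-miR-298-5p: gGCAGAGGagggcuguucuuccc
mmu-miR-298-3p: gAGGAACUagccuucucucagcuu
The seeds of both arms differ. The 4 peaks were 200 bp wide each and lay between 3616 and 11216 bp from the hairpin at chromosome 2, 174267504 to 174267585. Mir30d was named in the same way by 1 intergenic peak of 400 bp on chromosome 15.

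Chromosome 2 carried 367 of the 511 peaks, chromosome 15 carried 84 and chromosome 17 carried 60. They named 115, 34 and 34 genes, 183 in all. Of 3617 protein-coding genes on the 3 chromosomes, 165 were named by a peak, which is 4.56% (Wilson 95% interval 3.93 to 5.29). The share was 5.78% on chromosome 2 (103 of 1782 genes), 3.87% on chromosome 15 (30 of 776) and 3.02% on chromosome 17 (32 of 1059). Chromosomes 1, 5, 8, 10, 12, 16, 18 and X, with 10% or more of their coding genes marked, are called well covered below, and over these 8 the share was 35.7% (2628 of 7352 genes, interval 34.7 to 36.8). Low coverage was part of the choice, so the gap between these shares is a description. Among the chromosomes outside the choice, the nearest in number were chromosome 8 with 262 peaks and chromosome Y with 20. Exons and UTRs held 9.54% and 15% of those peaks.

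The running numbers that the authors gave their peaks differ between the 3 chromosomes and the rest. Chromosome 15 held all 84 of the numbers 29212 to 29295, chromosome 2 held 367 of 410 numbers (89.5%) and chromosome 17 held 60 of 82 (73.2%). On the well covered chromosomes between 5.46% (chromosome 8) and 66.8% (X) of the numbers were in the list. So between the first and last listed number of each of the 3 chromosomes, 73.2% or more of the numbers were in the list. Numbers left out before the first or after the last are not counted. For chromosome 17 the nearest listed numbers, 31820 and 31904, belong to chromosomes 16 and 18, so few numbers fell there in the first place. For chromosomes 2 and 15 this is not shown. What left numbers out is not given in the sources used here.

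Of the 511 peaks 375 were classed as intron (73.4%, interval 69.4 to 77.0). Each peak has a single class, and the classes here and below are the authors' labels. An intron label does not show that a peak lies in introns alone. The Stx16 and 1700001L05Rik peaks over the starts shown above carry this label and cover first transcribed bases. There were 58 peaks in 3′ UTRs, 57 in exons and 8 in 5′ UTRs, together 123 or 24.1% (20.6 to 28.0). A further 11 peaks were classed as intergenic and 2 as upstream of a gene. The exon and UTR share was 22.9% on chromosome 2 (84 peaks), 26.2% on chromosome 15 (22 peaks) and 28.3% on chromosome 17 (17 peaks), with overlapping intervals. On the well covered chromosomes it was 9.96% in all and ranged from 8.84% on chromosome 12 to 12.9% on chromosome 10. By class, chromosome 2 had 36 exon, 43 3′ UTR peaks, and 5 in 5′ UTRs. Chromosome 15 had 12 exon and 10 3′ UTR peaks and none in a 5′ UTR, and chromosome 17 had 9, 5 and 3.

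**Figure D1:**
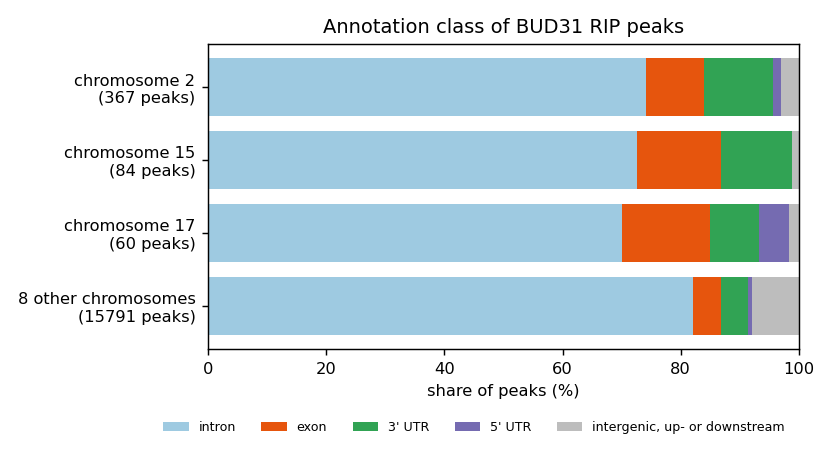
Share of peaks in each annotation class (percent of peaks) on chromosomes 2, 15 and 17 and on the 8 well covered chromosomes together; grey marks the intergenic, upstream and downstream classes. Introns hold most peaks in each set, 73.4% over the 3 chromosomes, and exons with UTRs hold 22.9%, 26.2% and 28.3% on chromosomes 2, 15 and 17.

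The peaks had a median width of 600 bp and ranged from 200 to 8000 bp. All positions on these 3 chromosomes fall on a grid of 200 bp bins, so 200 bp is the smallest width possible there. The chromosomes differed: the median was 400 bp on chromosome 2, 1200 bp on chromosome 15 and 600 bp on chromosome 17. Peaks of a single bin made up 141 of the 367 on chromosome 2 (38.4%), 4 of the 84 on chromosome 15 (4.76%) and 8 of the 60 on chromosome 17 (13.3%). On the well covered chromosomes the median was 1435 bp and the widest peak 60260 bp. Chromosomes 1, 12 and X had no peak of 200 bp, and their narrowest peaks were 205, 205 and 230 bp. The bin size may therefore differ between chromosomes, and its part in the width difference was not tested. Intron and 3′ UTR peaks of the 3 chromosomes had the same median, 600 bp, and exon and 5′ UTR peaks had 400 bp. The intergenic peaks had a median of 200 bp.

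**Figure D2:**
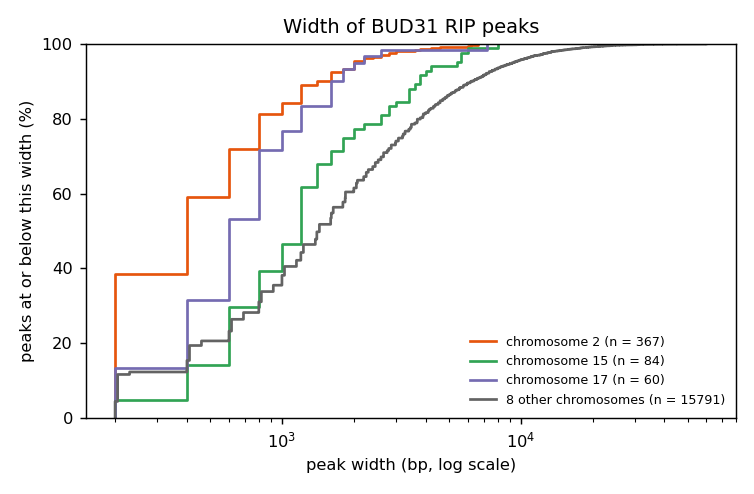
Cumulative share of peaks (percent) at or below each width (bp, log axis), with a line each for chromosomes 2, 15 and 17 and for the 8 well covered chromosomes together. Chromosome 15 has the highest median of the 3, 1200 bp, and chromosome 2 the lowest, 400 bp, with 38.4% of its peaks at the single-bin width of 200 bp.

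Within chromosome 2 the peaks were unevenly placed. From 150 Mb to the end there were 186 peaks in 48 genes, with a median width of 200 bp, and 41 of 445 coding genes there had a peak (9.21%, interval 6.86 to 12.3). Before 150 Mb there were 181 peaks in 67 genes, with a median of 600 bp, and 62 of 1337 coding genes had one (4.64%, 3.63 to 5.90). Exons and UTRs held 16.7% of the distal peaks (31, interval 12 to 22.7) and 29.3% of the others (53, interval 23.1 to 36.3). The 150 Mb border was set after the positions were seen, so this is a description.

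Peaks were concentrated in few genes. Of the 183 genes, 91 had 1 peak, whereas the 32 genes with 5 or more held 265 peaks (51.9%) and the 9 genes with 10 or more held 120. Neighbouring peaks of a gene lay a median of 1600 bp apart, and 111 of 328 such gaps (33.8%) were under 1000 bp. Intron peaks alone marked 92 genes, and 86 genes had at least 1 peak in an exon or UTR. A 3′ UTR peak was found in 43 genes, an exon peak in 41 and a 5′ UTR peak in 8. In 28 genes all peaks lay in the 3′ UTR. Among coding genes with a peak, 44 of 165 had peaks in exons and UTRs only (26.7%, interval 20.5 to 33.9), against 212 of 2628 on the well covered chromosomes (8.07%, 7.09 to 9.17). This gap follows from what the chromosomes were chosen by and is given as a description.

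Genes with a peak spanned a median of 34.7 kb and the coding genes without one 14.5 kb. Coding genes were divided by span into 5 groups, with borders that split the genes of the 3 and of the well covered chromosomes together into equal numbers. On the 3 chromosomes 0.452% of the shortest group had a peak (4 of 885 genes). The share was 9.73% for genes of 27.6 to 64.5 kb (interval 7.69 to 12.2) and 6.07% for those above 64.5 kb (4.42 to 8.29), with overlapping intervals. On the well covered chromosomes the same groups had 8.79%, 49.7% and 51.9%.

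Along the gene, intron peaks had their lowest share near the 3′ end. For 367 peaks of 129 coding genes whose strand was known, each gene was divided into 5 equal segments, which held 84, 73, 73, 60 and 77 peaks from 5′ to 3′. Of the intron peaks 26.9% lay in the first segment and 9.19% in the last (interval 6.35 to 13.1), and on the well covered chromosomes 16.2% lay in the last (15.5 to 17). Of the 3′ UTR peaks 44 of 51 lay in the last segment (86.3%), and 5 of the 8 5′ UTR peaks lay in the first. When each gene was represented by its widest peak, 30.2% of 129 genes had it in the last segment (23.0 to 38.6), against 21.5% on the well covered chromosomes (19.7 to 23.3). The intervals overlap, and since 3′ UTR peaks lie in the last segment this is a description of chromosomes chosen for a high UTR share.

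Of the 13 gene lists examined, the SR and hnRNP splicing regulators had the highest share of genes with a peak. Of 21 such genes on the 3 chromosomes 16 had a peak (76.2%, interval 54.9 to 89.4), beside 4.56% of all coding genes there. Their 54 peaks were 39 in introns and 15 in exons or UTRs. The 5 without a peak were Celf2, Khdrbs3, Rbfox2, Rbm17 and Rbm45. On the well covered chromosomes 14 of 24 genes of the same list had a peak, beside 35.7% of all coding genes. The list was drawn up with earlier results of these data known, and the peak list gives no RNA level for these genes.

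Among the SR protein genes, Srsf3, Srsf6 and Srsf7 had peaks. Srsf6, on chromosome 2, carried an intron peak of 200 bp at 162932801 to 162933000, an exon peak of 200 bp at 162934401 to 162934600 and a 3′ UTR peak of 2000 bp at 162935401 to 162937400. Together they covered 37.8% of its 5.61 kb. Srsf3, on chromosome 17, carried intron peaks of 1600 and 600 bp at 29034201 to 29035800 and 29040001 to 29040600. Its remaining peak, 800 bp wide, was in the 3′ UTR at 29041601 to 29042400. Both intron peaks were assigned to a noncoding transcript of Srsf3. The single Srsf7 peak, an intron peak of 600 bp at chromosome 17, 80202801 to 80203400, was also assigned to a noncoding transcript of its gene. Srpk1 encodes the kinase that phosphorylates SR proteins, and Srrm2 a spliceosomal protein rich in serine and arginine. Each had 1 peak, classed as 3′ UTR (chromosome 17, 28592801 to 28593200 and 23815601 to 23816200). The midpoints of these peaks lay at 84.7% and 74.2% of the gene from its 5′ end, short of the 3′ end.

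The hnRNP genes differed in the class of their peaks. Raly, an hnRNP-like protein gene, had 15 peaks, all in introns and each between 200 and 800 bp, and they covered 7.49% of its 80.1 kb. Pcbp2, which encodes a poly(C)-binding hnRNP, had 6 intron peaks of 800 to 3400 bp covering 35.8% of 29.6 kb. Hnrnpm had 3 intron peaks of 400 to 600 bp and an exon peak of 1200 bp at chromosome 17, 33649001 to 33650200. Hnrnpll, a regulator of alternative exons, had 1 intron peak of 800 bp. By contrast, Hnrnpa1 had a single peak, classed as 3′ UTR and 800 bp wide (chromosome 15, 103244201 to 103245000). Its midpoint lay at 68.9% of the gene from the 5′ end. Hnrnpa3 had a single exon peak of 600 bp (chromosome 2, 75665601 to 75666200). These 2 genes encode close relatives that are abundant in the nucleus and repress splice sites. Related sequences can share reads, and read placement was not tested here.

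Other splicing regulators of the list had different patterns. Rbm39, a splicing factor related to U2AF, had 11 peaks of 200 to 1200 bp, 9 in introns, 1 in an exon and the widest in the 5′ UTR (chromosome 2, 156176601 to 156177800). Celf1, which binds GU-rich RNA and acts in splicing and mRNA decay, had 3 peaks of 200, 600 and 800 bp, all in the 3′ UTR between 91014201 and 91018800 on chromosome 2. Khsrp, which binds AU-rich elements, had 1 3′ UTR peak of 1200 bp (chromosome 17, 57021401 to 57022600). Qk, encoding the quaking protein, had 1 exon peak of 1200 bp (chromosome 17, 10214801 to 10216000). Rbm38 had 1 intron peak of 200 bp. In all, 11 of the 16 genes had an exon or UTR peak and 7 had only such peaks.

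**Figure D3:**
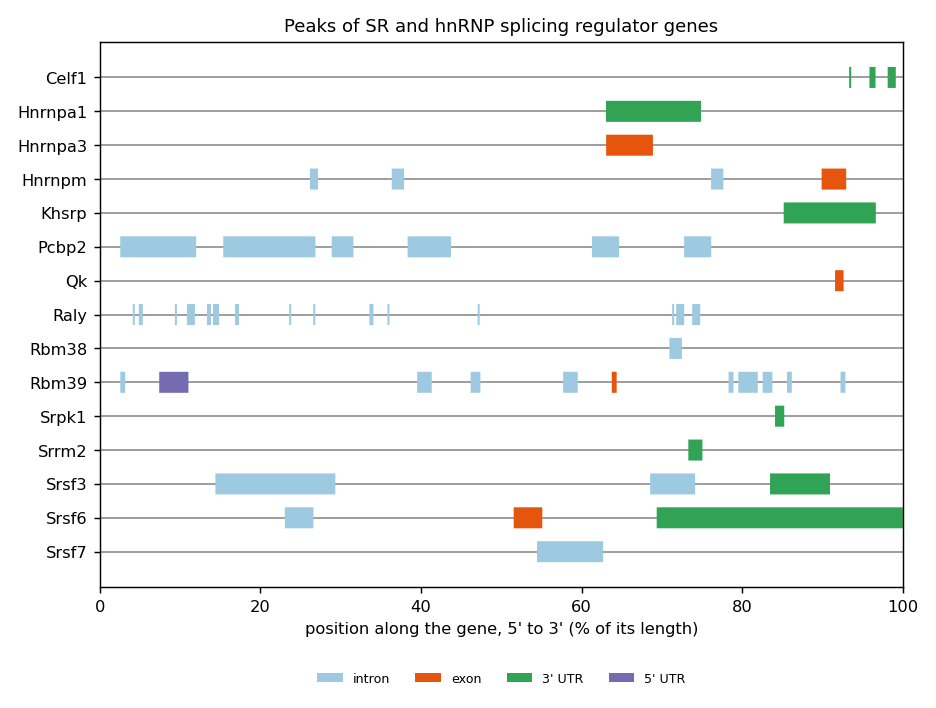
Peaks of the SR and hnRNP splicing regulator genes whose strand was known, placed along each gene from 5′ to 3′ (percent of the gene's length) and coloured by class; Hnrnpll is left out for want of a strand. Raly has 15 intron peaks, whereas Celf1, Hnrnpa1, Khsrp, Srpk1 and Srrm2 have only peaks classed as 3′ UTR.

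Noncoding transcripts of coding genes were named for 39 of 460 peaks of coding genes (8.48%, interval 6.26 to 11.4), against 5.38% on the well covered chromosomes (5.02 to 5.75). The SR and hnRNP genes gave 6 of 54 (11.1%, 5.19 to 22.2), in Hnrnpa3, Hnrnpll, Qk, Srsf3 and Srsf7. The other coding genes of the 3 chromosomes gave 33 of 406 (8.13%), and the intervals overlapped. Which transcript the reads came from cannot be read from the list.

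Of the core spliceosome genes, 3 of 23 had a peak (13%, interval 4.54 to 32.1), an interval that includes the 4.56% of all coding genes. Among them Puf60, which acts in 3′ splice site recognition, had 1 intron peak of 600 bp, and Snrpb, encoding the Sm proteins B and B′, had 1 of 200 bp. No peak of these genes was in an exon or UTR. On the well covered chromosomes 14 of 28 core spliceosome genes had a peak, beside 35.7% of all coding genes.

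In the list of cleavage, polyadenylation and export, 3 of 9 genes were marked (33.3%, interval 12.1 to 64.6), by 11 intron peaks. Beside this stands the 4.56% of all coding genes on the 3 chromosomes. Pabpc1, which encodes the cytoplasmic poly(A)-binding protein, had 8 of the 11 peaks, 400 to 1800 bp wide, which covered 48.7% of its 13.9 kb on chromosome 15. The widest ran from 36604001 to 36605800. Cstf3, a cleavage stimulation factor subunit, had 2 peaks of 400 and 200 bp, and Ddx39b, a helicase of splicing and mRNA export, had 1 of 800 bp.

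The remaining RNA lists held 4 genes with a peak, and the intervals of RNA decay and of translation factors (8.33% each, 1.49 to 35.4) include the 4.56% of all coding genes. RNA decay had 1 of 12 genes, Lsm14b, with 2 intron peaks of 200 bp. Translation factors had 1 of 12, Eif2s2, which encodes the beta subunit of eIF2, with 1 intron peak of 200 bp. RNA modification had 2 of 7 (28.6%, interval 8.22 to 64.1). Ythdf1, a reader of N6-methyladenosine, had 2 intron peaks of 200 bp. Trmt61b, a mitochondrial tRNA methyltransferase gene, had 1 of 800 bp that also overlaps Spdya and Gm18140. RefSeq types Trmt61b as long noncoding RNA, and its peak was assigned to a noncoding transcript. It is counted in this list but not among the coding genes with a peak. Over the RNA lists together 26 of 84 genes had a peak (31%, interval 22.1 to 41.5), beside 4.56% of all coding genes. The well covered chromosomes had 86 of 135, beside 35.7% of all coding genes there.

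**Figure D4:**
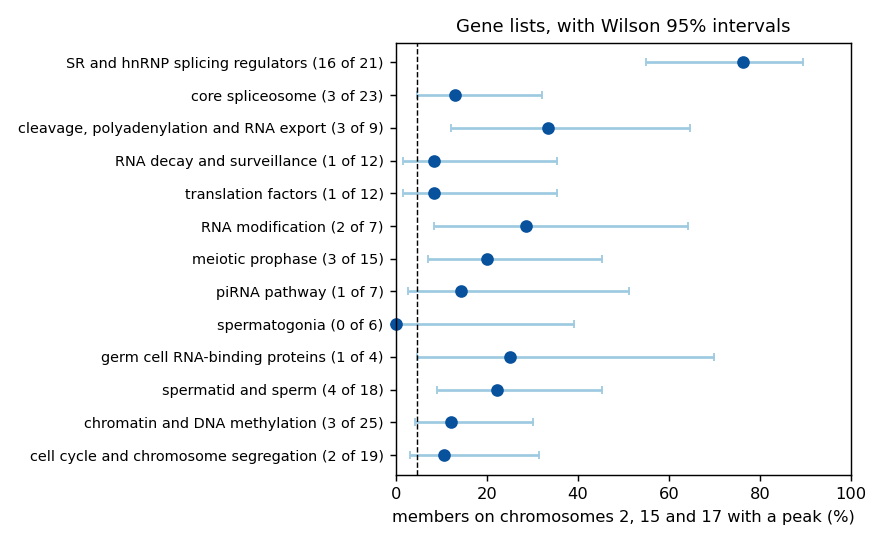
Share of the genes of each list with at least 1 peak (percent, Wilson 95% intervals, counting error over genes only) on chromosomes 2, 15 and 17. SR and hnRNP regulators stand at 76.2% and core spliceosome genes at 13%; the dashed line is the 4.56% of all coding genes on these chromosomes.

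Germ cell genes had peaks in 9 of 49 cases (18.4%, interval 9.98 to 31.4), beside 4.56% of all coding genes of the 3 chromosomes. Celf1 is counted here and also among the SR and hnRNP splicing regulators. In the well covered set it was 43 of 64, beside 35.7% of all coding genes there. Of 15 meiotic prophase genes, 3 were marked (20%, 7.05 to 45.2), with 22 peaks, 20 of them in Sycp2. Sycp2 encodes a protein of the lateral element of the synaptonemal complex and had the most peaks of any gene on the 3 chromosomes. Its peaks were 200 to 2200 bp wide, 18 in introns and 2 in exons, and covered 17.3% of 62.5 kb. Between 178355200 and 178382601 on chromosome 2 it had none. Spo11, which makes the meiotic DNA double-strand breaks, had 1 intron peak of 200 bp at 172982801 to 172983000. Mdc1, a DNA damage adaptor, had 1 exon peak of 1000 bp (chromosome 17, 35853001 to 35854000). Prophase genes without a peak included Dmc1, Hsf2bp, Mei1, Meiob, Msh5, Prdm9, Rad21, Rad21l, Smc1b, Syce3 and Terb2.

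Mov10l1 was the only 1 of 7 piRNA pathway genes with a peak (14.3%, interval 2.57 to 51.3). That interval includes the 4.56% of all coding genes on the 3 chromosomes. Mov10l1 encodes an RNA helicase required for piRNA biogenesis. Its 9 peaks on chromosome 15 were all in introns, measured 600 to 6000 bp and covered 32.4% of 72.3 kb. The widest, at 88999001 to 89005000, and the next, of 5600 bp at 89012201 to 89017800, were followed by a peak of 600 bp at 89018801 to 89019400 that overlaps the snRNA gene Gm23737. Btbd18, Dnmt3c, Exd1, Gtsf1, Pnldc1 and Tdrd6 had no peak.

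Spermatid and sperm genes were marked in 4 of 18 cases (22.2%, interval 9.0 to 45.2). Dnah8, an axonemal dynein heavy chain gene, had 6 intron peaks of 600 to 1200 bp that covered 2.09% of its 249 kb. Odf2, which encodes a protein of sperm outer dense fibres and centrioles, had 4 peaks of 400 to 600 bp, 2 in introns, 1 in an exon and 1 in the 3′ UTR. Tcp11, a testis-expressed gene linked to sperm function, had an intron peak of 400 bp and the 5′ UTR peak of 600 bp at 28080001 to 28080600, over the start shown above. Catsper2, a sperm calcium channel subunit gene, had 1 intron peak of 200 bp. Of 4 germ cell RNA-binding genes Celf1 was marked, and Dazl, Tarbp2 and Zfp36l2 were not. None of 6 spermatogonial genes had a peak (Dazl, Itga6, Pou5f1, Sall4, Sohlh1 and T). The interval of this count of 0 reaches 39.0% and includes the 4.56% of all coding genes.

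Few genes that mark the labelled cell type lie on these chromosomes. Of 4 germ cell markers located there, Spo11 had a peak and Dazl, Prdm9 and Dmc1 did not. Among markers of other testis cells, 2 of 5 Sertoli genes had a peak, Wt1 (1 intron peak of 200 bp) and Aard (1 3′ UTR peak of 1000 bp). Defb19, Dhh and Fshr had none. The 1 myoid, 3 macrophage and 1 endothelial marker genes had none, and no Leydig or erythroid marker of the list lay on these chromosomes. Among all coding genes of the 3 chromosomes 4.56% had a peak, and marker counts this small cannot be used to compare cell types. A peak is not an expression level, and the part of other cells in these results was not tested.

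Genes of RNA-binding proteins outside the lists of splicing and germ cell genes were also named by peaks. A grouping by function made after the peaks had been seen put 13 further genes, with 60 peaks, among RNA-binding proteins. Only genes with a peak were grouped, so the group counts here and below give no share of genes marked and do not show a function rich in peaks. Strbp, a double-stranded RNA-binding protein gene needed for normal sperm formation, had 15 peaks: 10 in introns, 1 in an exon and 4 in the 3′ UTR. Its widest, of 6600 and 6200 bp, lay in introns at chromosome 2, 37670001 to 37676600 and 37652401 to 37658600. Myef2, an RNA-binding repressor gene, had 9 intron peaks and 1 exon peak of 1000 bp, and its widest was an intron peak of 3000 bp. Zfr, a zinc finger RNA-binding protein gene, had 4 intron peaks, the widest of 5400 bp. Ddx17, an RNA helicase gene, had a 3′ UTR peak of 400 bp, an intron peak of 2600 bp and an exon peak of 400 bp. Caprin1, which regulates mRNA transport and translation, had 4 intron peaks and a 3′ UTR peak of 1800 bp. Prrc2a had exon peaks only, of 2200 and 600 bp.

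Of the 7 groups made in this way, transcription and chromatin had the most genes, 19, with 70 peaks, 63 of them in introns. Mllt10, which encodes a partner of the histone methyltransferase DOT1L, had 15 intron peaks and 1 in the 3′ UTR, 600 to 4600 bp wide. Top1, the gene of DNA topoisomerase I, had 10 intron peaks of 200 to 400 bp that covered 3.64% of 76.9 kb. Asxl1, a Polycomb-associated gene, had 8 intron peaks covering 5.16% of its length. Atf1, a gene of the CREB family, had 3 intron peaks, the widest of 5600 bp. Dido1 had 4 intron and 2 3′ UTR peaks. In the list of chromatin regulators 3 of 25 genes were marked (12%, interval 4.17 to 30.0), namely Asxl1, Bag6 and Cbx5, the last of these by a 3′ UTR peak of 2200 bp. In the cell cycle list 2 of 19 were marked (10.5%, interval 2.94 to 31.4), and both intervals include the 4.56% of all coding genes. They were Spdya, an activator of CDK2, with 4 intron peaks, and Casc5 (Knl1, a kinetochore gene), with an intron peak of 200 bp and a 3′ UTR peak of 400 bp.

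**Figure D5:**
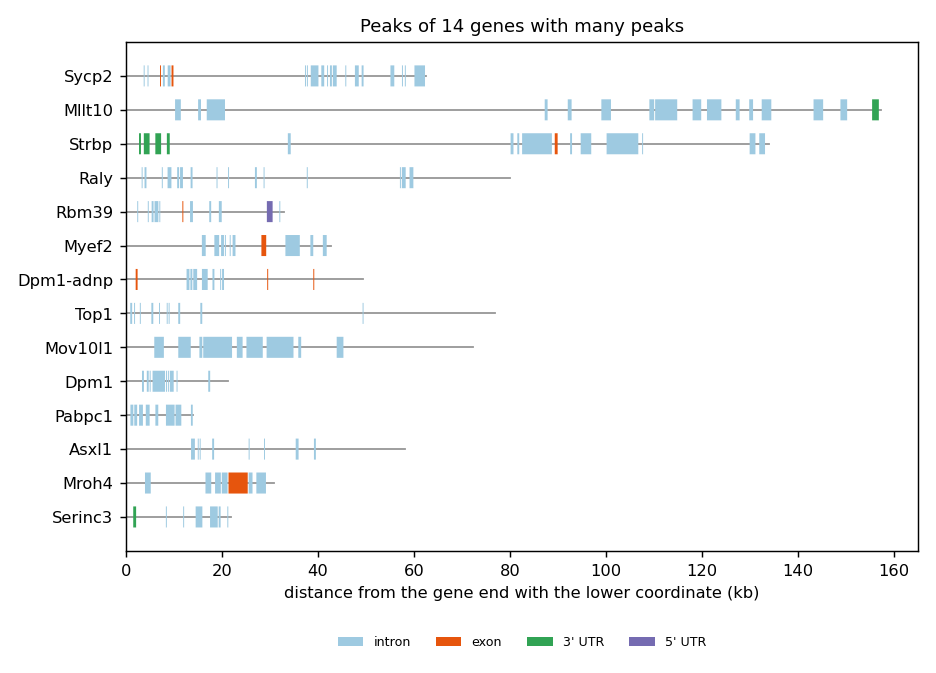
Peaks of 14 of the 15 genes with the most peaks, drawn to scale from the gene end with the lower coordinate (kb) and coloured by class. Raly and Top1 carry narrow intron peaks, Strbp and Mov10l1 carry intron peaks of up to 6600 and 6000 bp, and Strbp has 4 peaks in its 3′ UTR.

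The widest peaks were in genes of varied function. The widest of all, 8000 bp, was annotated as intron of the long noncoding RNA gene 1700001L05Rik (chromosome 15, 83359401 to 83367400). It also covers the transcript start shown above. With its exon peak of 3600 bp it covered 85.5% of the gene's 13.5 kb. Calm2, one of the calmodulin genes, followed with an intron peak of 7200 bp (chromosome 17, 87438801 to 87446000), and its 4 peaks covered 79.8% of 13.5 kb. Swi5, which encodes a recombination protein, had 1 intron peak of 6000 bp over 64.3% of the gene, and it was assigned to a noncoding transcript. Mroh4 had 6 intron peaks and an exon peak of 4000 bp. At the other end, Macrod2 had 7 intron peaks that covered 0.13% of 1998 kb.

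Genes of the endoplasmic reticulum and of membrane traffic numbered 12, with 37 peaks, 11 of them in exons or UTRs. Stx16, a syntaxin gene of the trans-Golgi network, had 4 intron peaks and 3 3′ UTR peaks of 200 to 600 bp. Serinc3 had 6 intron peaks and 1 3′ UTR peak. Vapa and Rrbp1 each combined 2 intron peaks with 1 in the 5′ UTR. Dpm1, a dolichol phosphate mannose synthase gene, had 9 intron peaks, and 10 more peaks were named after the readthrough transcript Dpm1-adnp, which runs across Dpm1 and its neighbour Adnp. By position 8 of those peaks lie over Adnp and 2 over Dpm1. Whether their reads came from the readthrough or from the single gene cannot be told apart.

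The cytoskeleton group had nearly equal numbers of intron peaks (16) and exon or UTR peaks (15) in 11 genes. Plec, encoding the cytolinker plectin, had 4 peaks, all in exons and 600 to 1400 bp wide. Ttbk2, a kinase gene of cilium assembly, had 3 peaks, all in the 3′ UTR, as did Trim44, which is outside the group. Signalling genes numbered 11 with 30 peaks. Among them were Ywhaz, a 14-3-3 gene with 1 3′ UTR peak of 1600 bp, and Mapkbp1, with 3 intron peaks and 1 in each UTR class. The Mapkbp1 peak classed as 5′ UTR lay at 71.1% of the gene from its 5′ end, downstream of the intron peaks. The ubiquitin and chaperone group had 12 genes with 16 peaks, and metabolism and transport had 12 genes with 24 peaks. Itch, a ubiquitin ligase gene, had 2 intron peaks and 1 in the 3′ UTR. Dgat1, the triglyceride synthesis enzyme gene, had 3 peaks of 1000 to 4200 bp that covered 62.1% of 10.0 kb. Within these groups, genes outside the 5 naming rules were chosen after their values were seen.

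Annotation left some peaks without a single gene. The 511 peaks named 165 coding genes, 13 long noncoding RNA genes, 2 miRNA genes, 1 antisense gene, 1 transcribed pseudogene and 1 symbol, Gm13941, that had no match in the reference table. The 5 peaks of Gm13941 were called intergenic but lie inside A26c3 in RefSeq. The Crat peak called upstream (chromosome 2, 30415401 to 30415800) lies inside Crat in RefSeq. Of all 511 peaks, 59 (11.5%) overlapped more than 1 reference gene and 11 overlapped none. The 4 exon peaks of Gm14144 lay outside that gene's extent in RefSeq, and the exon peak of 2900097C17Rik, listed by RefSeq as the long noncoding RNA gene Norad, also overlapped Gm14170. The authors' classes outside genes (intergenic and upstream) held 13 peaks (2.54%), and on the well covered chromosomes such classes, downstream included, held 7.93%.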

How the data were processed

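The data were 1 deposited peak list, whose columns per the file headers are a running number, chromosome, start and end (mm10), annotation class, transcript, gene and gene type. The submitters' processing notes name TopHat2 2.0.13 and mm10. Which peak caller was run, at what threshold and with what use of the input, is not given in the sources used here, nor is the release of the annotation. The deposited list holds no count, fold, score or strand, so depth and peak strength are unknown.

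Peaks were selected by chromosome, and widths, classes, gaps, covered lengths and shares of genes were computed with pandas 2.3.3, numpy 2.4.6 and scipy 1.17.1 under Python 3.11.15. Figures were drawn with matplotlib 3.10.9. A gene counted as marked when the list names it. Coding genes, spans and overlaps (at least 1 bp) came from the RefSeq table of GRCm38.p6, which matched 182 of 183 genes. Intervals are Wilson 95% intervals. The counting steps were tested on simulated data. With 1 library per group no test between conditions was possible.

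Genes were named when they were among the 15 with the most peaks, carried one of the 10 widest peaks or one of the 15 widest exon or UTR peaks, belonged to an RNA processing or germ cell list and had a peak (members without one where 4 or fewer), or had UTR peaks with peaks of another class. Some genes that these rules name are not reported here. The other genes named were chosen after their values were seen. The members and the 13 gene lists were chosen with earlier results of these data known. Alternatives tried were 1 peak per gene, wider peaks, peaks inside genes, other rules of overlap and leaving out each chromosome. Peaks over 1 reference gene only was added after seeing the data.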

Additional observations from a re-analysis of the deposited data

How the results depend on the processing

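No paired analysis was possible because there was 1 library per group and the peak list has no values per library. With 1 peak kept per gene (183 genes) the exon and UTR share was 33.9% and the intron share 63.4%, and the median width was 800 bp. Without chromosome 2 the median width was 800 bp and 3.38% of coding genes had a peak. With the 263 peaks at or above the median width, 3.12% of coding genes had one. Without chromosome 15 or without chromosome 17 the median width was 400 bp. Under the other alternatives the exon and UTR share lay between 22.9% and 27.1%, and the SR and hnRNP list had 14 to 16 of its 21 genes with a peak. The lists of RNA decay and of translation factors had 0 genes with a peak at or above the median width, against 1 each, and RNA modification and cell cycle had 1, against 2 each. RNA modification also had 1 with peaks over 1 reference gene only, an alternative chosen after seeing the data. Depth, RNA level and peak strength are unknown, so a gene without a peak is not shown to lack BUD31 binding.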
